A study of Mus musculus with 18 samples.

Results

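The genes described here are 10 DNA damage checkpoint kinases and mediators, Atm, Atr, Chek1, Chek2, Atrip, Topbp1, Clspn, Wee1, Cdc25a and Trp53bp1, out of 14797 genes in the mRNA table and 13918 in the RNAome table. They were chosen by symbol, as the RefSeq coding transcripts of these names. Each had exactly 1 RefSeq entry per table, the same transcript in both, and all 10 passed the filter on low counts in both assays. The cells were C57BL/6 mouse embryonic stem (ES) cells lacking HPRT, a purine salvage enzyme, at passages 19 to 22, moved from feeder cells to gelatin for the last passage. One group of 3 samples received cisplatin at 2.5 µM (a platinum compound that forms DNA crosslinks) and the other 3 received an equal volume of its vehicle DMSO (control); HPRT deficiency is common to both groups. The exposure time, and whether the cells are 1 clone, were not given in the sources used here. In both assays the samples are coded 8.3.3, 8.4.3 and 8.5.3 (cisplatin) and 8.4.16, 8.5.16 and 8.6.16 (control). Equal codes were taken to mean the same RNA sample, 6 in all. The kit of mRNA sequencing selects poly(A) RNA, and in RNAome sequencing rRNA-depleted total RNA was fragmented and ligated to adapters so that 1 library holds long as well as small RNA.

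In the checkpoint, ATM is activated by double-strand breaks and ATR, bound to its partner ATRIP, by single-stranded DNA coated with the RPA complex. TOPBP1 activates ATR, Claspin (Clspn) brings CHK1 (Chek1) to ATR, and 53BP1 (Trp53bp1) gathers at breaks downstream of ATM. CHK1 and CHK2 (Chek2) then restrain the CDC25 phosphatases, while WEE1 puts the inhibitory phosphate on cyclin-dependent kinases that CDC25 removes. This signalling runs by phosphorylation, which RNA levels do not measure.

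Expression counts per library came to between 20365963 and 31604098 in mRNA sequencing, where the treatments overlapped. In RNAome sequencing they were 71146210 to 94373096 in cisplatin and 43404675 to 68757893 in control libraries. Depth thus went with treatment in the RNAome assay, and its part in the RNAome differences was not tested. The members held 221 to 3565 counts per library in the mRNA assay and 10 to 768 in the RNAome assay. The first principal component of all genes separated the treatments in mRNA sequencing and carried 69.1% of the variance. In RNAome sequencing this component carried 38.5%, with cisplatin libraries at -18.64 to -15.57 and control libraries at 1.4, 3.71 and 46.05. It separated the treatments there too, but control 8.4.16, at 46.05, stood apart from the other controls. The RNAome values of Atr and Atrip, those of Cdc25a introns and the differences between assays are therefore also given without this library. Other RNAome values are not all given that way. ES cell markers were abundant, with Pou5f1 at 1197 CPM in cisplatin and 1198 CPM in control libraries, where CPM is the count relative to the library total scaled by edgeR's trimmed mean method. Of 8 ES cell markers 6 were called lower after cisplatin in mRNA sequencing, where 19.2% of all genes were lower and 18.0% higher. Zfp42 fell most, by 0.70 on the log2 scale, while Pou5f1 and Dppa5a were not called. The sum of the 8 markers spanned 4303 to 4534 CPM in cisplatin and 4995 to 5255 CPM in control libraries. The part of this in the results was not tested. Of 8 feeder fibroblast markers 6 were tested in mRNA sequencing and 0 were called, where 37.2% of all genes were. Their sums were 113.9 to 158.3 CPM in cisplatin and 129.0 to 157.7 CPM in control libraries, and Lum and Dcn were not in the table. Of 7 trophectoderm markers 4 were tested and 1 was called, Krt18, to be read against the same 37.2% of all genes. Krt18 was higher, at 42.5 ± 3.3 CPM in cisplatin and 33.0 ± 5.4 CPM in control libraries (SD, n = 3 each, edgeR adjusted p = 0.0116). The sum of the trophectoderm markers spanned 80.6 to 88.6 CPM in cisplatin and 70.4 to 76.4 CPM in control libraries. Cdx2 and Elf5 were not in the table, and the part of this in the results was not tested. No label tells whether the samples of a group were separate cultures; the p-values therefore measure variation among these samples alone, possibly technical.

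Cisplatin lowered the mRNA of 3 of the 10 genes and raised none of them, by edgeR's quasi-likelihood test with a Benjamini-Hochberg adjusted p under 0.05 over 14083 genes. The 3 were Atm, Atr and Trp53bp1, at 0.791, 0.825 and 0.879 times their control levels. Of all genes tested, 37.2% were called, 19.2% lower and 18.0% higher, so a call by itself does not set these genes apart from the rest. The members' median log2 fold change was -0.10, against 0.01 over all genes, whose quartiles were -0.17 and 0.26. The effects were small in every member: the 95% intervals of all 10 lay between 0.719-fold and 1.27-fold. Because the RNA came from bulk cultures, fewer cells of a kind and less RNA per cell cannot be told apart.

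Atm and Atr, the 2 apical kinases, lie on mouse chromosome 9, as do 6 of the 10 members. On build mm9 Atm spans chr9:53247254-53344845 on the minus strand and Atr chr9:95758016-95852063 on the plus strand; Trp53bp1 spans chr2:121019017-121097143 on the minus strand. The RefSeq promoter entries of the 3 lowered genes are shown because all 3 genes fell, in the bases before the start that lie outside annotated coding-gene exons, 5′ to 3′, with capitals for the GC box (GGGCGG, or CCGCCC on the other strand) and the CCAAT box (CCAAT, or ATTGG on the other strand).
Atm: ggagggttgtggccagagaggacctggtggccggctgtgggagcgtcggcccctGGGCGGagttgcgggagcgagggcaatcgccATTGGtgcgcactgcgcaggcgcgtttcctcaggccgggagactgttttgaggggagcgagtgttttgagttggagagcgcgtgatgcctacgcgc
Atr: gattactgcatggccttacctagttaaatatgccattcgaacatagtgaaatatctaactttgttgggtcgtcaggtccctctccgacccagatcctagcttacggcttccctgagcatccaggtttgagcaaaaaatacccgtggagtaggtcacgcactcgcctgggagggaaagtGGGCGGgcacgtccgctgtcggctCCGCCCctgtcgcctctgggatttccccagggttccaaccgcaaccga
Trp53bp1: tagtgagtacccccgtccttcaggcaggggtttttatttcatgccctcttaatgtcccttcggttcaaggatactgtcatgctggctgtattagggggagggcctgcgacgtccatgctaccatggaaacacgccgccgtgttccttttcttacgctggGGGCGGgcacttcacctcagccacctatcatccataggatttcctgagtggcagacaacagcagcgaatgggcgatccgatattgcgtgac
The Atm stretch is chr9:53344846-53345026 (minus strand), the Atr stretch chr9:95757766-95758015 (plus strand) and the Trp53bp1 stretch chr2:121097144-121097393 (minus strand), all on mm9. A GC box occurred in the 250 bases before the start in all 3, and in 5 of the 9 members with an entry, against 32.74% of 32851 RefSeq promoters. GC content of the 250 bases was 66.0% in Atm, 55.2% in Atr and 54.4% in Trp53bp1, against a median of 52.4% over all promoters. Its part in the count of GC boxes was not tested. The CCAAT box was in the Atm promoter and in neither of the other two, in 5 of 9 members, and in 33.85% of all promoters. These are matches of letters, not binding sites.

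Atm mRNA stood at 103.6, 100.2 and 93.6 CPM in the cisplatin libraries and at 117.7, 123.1 and 135.5 CPM in the control libraries. All 3 cisplatin libraries were below all 3 control libraries. The log2 fold change was -0.34 ± 0.06 (SE, n = 3 each; edgeR adjusted p = 0.000841). In RNAome sequencing Atm had 13.6, 15.5 and 10.1 CPM in cisplatin and 15.7, 13.5 and 15.6 CPM in control libraries. There the groups overlapped, and the log2 difference of -0.17 ± 0.18 did not pass (edgeR adjusted p = 0.762), with an interval from 0.687-fold to 1.15-fold. Leaving out 1 library gave values between -0.32 (cisplatin 8.4.3 left out, edgeR adjusted p = 0.741) and -0.03 (cisplatin 8.5.3 left out), none of them called.

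Atr mRNA was 92.3, 90.4 and 94.7 CPM with cisplatin and 112.7, 119.0 and 104.4 CPM without. The groups did not overlap, and the log2 fold change was -0.28 ± 0.06 (SE, n = 3 each; edgeR adjusted p = 0.00244). In RNAome sequencing the Atr level was 13.9, 13.0 and 13.9 CPM in cisplatin and 21.7, 17.5 and 15.6 CPM in control libraries. Atr was the 1 member of 10 whose RNAome groups did not overlap, where 19.1% of 9978 genes did not overlap, 9.14% lower and 9.93% higher. Its log2 fold change of -0.42 ± 0.16 had an edgeR adjusted p of 0.251, and without control 8.4.16, the highest library, it was -0.29 ± 0.15 with an adjusted p of 0.468. Exons of Atr overlap those of 1700065D16Rik and Gm16794, and since the use of strand in counting is not stated, reads there cannot be told apart.

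Atrip encodes the ATR partner and was the least abundant member. Its mRNA level was 30.0, 27.5 and 30.2 CPM in cisplatin and 24.1, 26.1 and 27.3 CPM in control libraries. The cisplatin libraries were all above the control libraries, by 27.45 against 27.34 CPM at the closest, and the log2 fold change of 0.17 ± 0.08 did not pass (edgeR adjusted p = 0.131). In RNAome sequencing it held 39, 49 and 35 counts in cisplatin libraries and 15, 12 and 10 counts in control libraries, or 2.27, 2.17 and 3.18 CPM against 2.84, 1.12 and 1.07 CPM. The log2 fold change was 0.72 ± 0.34 (edgeR adjusted p = 0.361), and 1.17 ± 0.34 without control 8.4.16 (adjusted p = 0.116), the largest move of a member value when 1 library was left out of the RNAome fit. Atrip exons overlap those of Trex1, so the same limit on strand applies.

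Topbp1, the ATR activator, was the most abundant member. In mRNA sequencing it had 248.9, 237.6 and 242.8 CPM with cisplatin and 255.0, 248.6 and 268.3 CPM without. The highest cisplatin library was just above the lowest control library, and the log2 fold change of -0.08 ± 0.05 did not pass (edgeR adjusted p = 0.202). Clspn, the mediator between ATR and CHK1, had 76.1, 74.3 and 71.8 CPM in cisplatin and 74.0, 71.4 and 76.2 CPM in control libraries. Its groups overlapped throughout, and the interval of its fold ran from 0.918 to 1.10.

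Trp53bp1, the break mediator, had 131.4, 120.7 and 122.2 CPM of mRNA in cisplatin libraries, against 142.7, 150.6 and 132.4 CPM in control libraries. The groups did not overlap, with 131.4 against 132.4 CPM at the closest. The log2 fold change was -0.19 ± 0.06 (SE, n = 3 each; edgeR adjusted p = 0.0247), and this call was lost when cisplatin 8.4.3, cisplatin 8.5.3, control 8.4.16 or control 8.5.16 was left out (adjusted p = 0.112, 0.0930, 0.0634 and 0.119). In RNAome sequencing it had 7.86, 8.27 and 7.55 CPM with cisplatin, inside the range of the control libraries at 6.62, 8.10 and 10.01 CPM. Trp53bp1 exons overlap those of Tubgcp4.

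**Figure D1:**
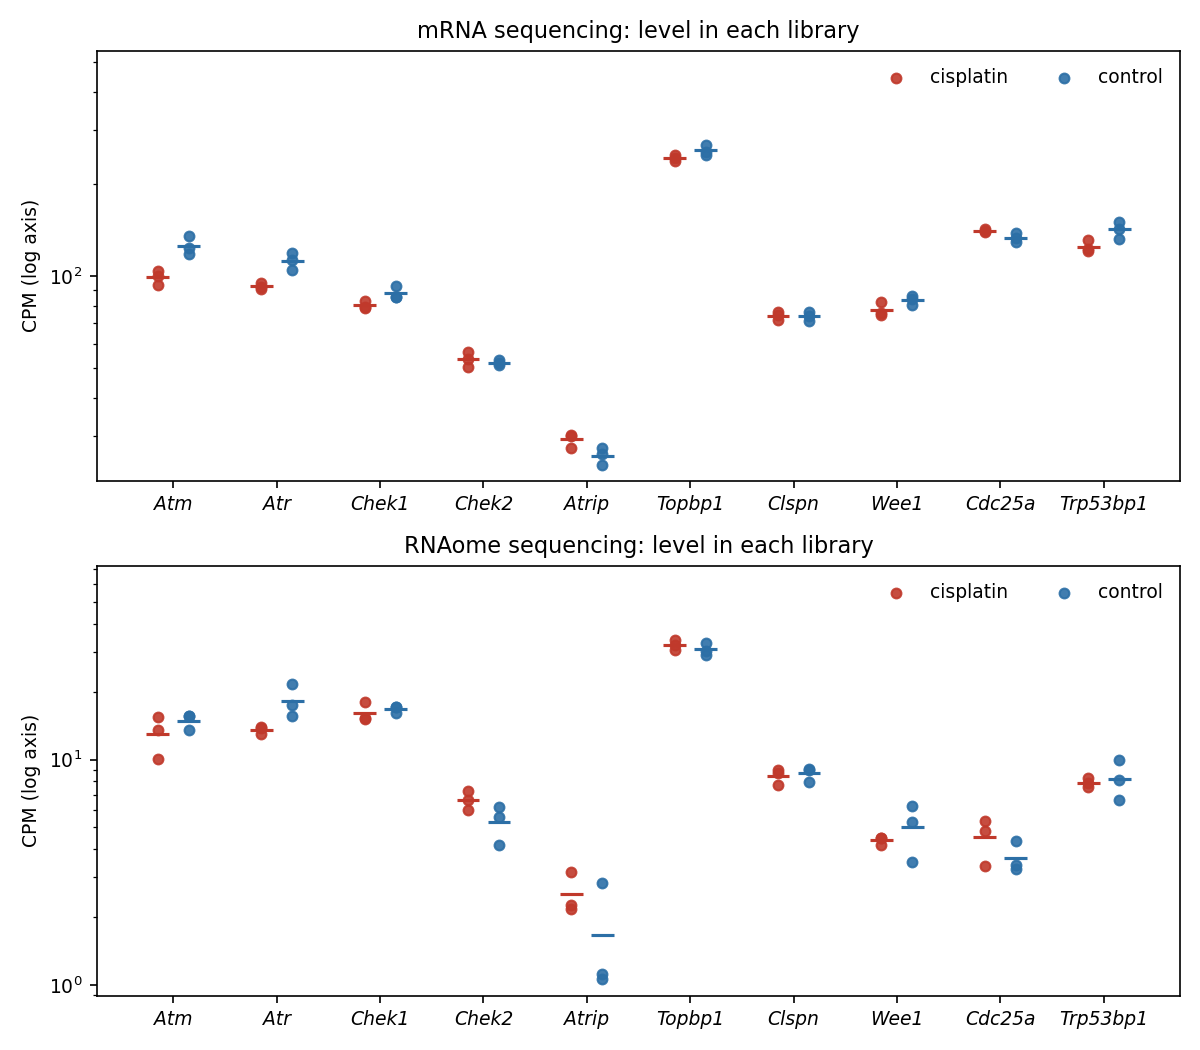
Level of each gene in CPM (log axis) in mRNA sequencing (top) and RNAome sequencing (bottom); each point is 1 library, cisplatin left in red and control right in blue, and the bar is the mean of 3. In mRNA sequencing Atm, Atr, Chek1 and Trp53bp1 lie below their controls without overlap, and Atrip and Cdc25a above theirs, while in RNAome sequencing only Atr is free of overlap.

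The effector kinases did not pass the test. Chek1 mRNA was 82.7, 78.6 and 78.9 CPM in cisplatin and 92.8, 85.5 and 85.0 CPM in control libraries. The groups did not overlap, but the log2 fold change of -0.13 ± 0.06 had an edgeR adjusted p of 0.109. Chek2 had 53.4, 50.5 and 56.2 CPM with cisplatin and 52.9, 51.9 and 51.2 CPM without, with the control range inside the cisplatin range. Its interval ran from 0.929-fold to 1.13-fold.

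The kinase and the phosphatase at the end of the pathway did not pass either. Wee1 had 75.8, 74.5 and 82.2 CPM of mRNA in cisplatin and 80.3, 85.9 and 84.0 CPM in control libraries, a log2 difference of -0.11 ± 0.06 (edgeR adjusted p = 0.188). Cdc25a, whose protein the checkpoint sends for degradation, had 142.6, 139.2 and 140.3 CPM in cisplatin and 133.2, 128.9 and 138.0 CPM in control libraries. The cisplatin libraries were above all controls, and the log2 difference of 0.08 ± 0.05 had an edgeR adjusted p of 0.252. In all, 6 of 10 members had groups that did not overlap in mRNA sequencing, 4 lower and 2 higher, where 48.7% of all genes did not overlap, 23.9% lower and 24.9% higher.

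Cdc25a and Topbp1 were the 2 of 9 members whose 250 bases before the start held an E2F site as searched here (TTTGGCGC or TTTCGCGC on either strand), a sequence found in 0.65% of all RefSeq promoters. Their stretches are printed for that site, in capitals with the GC and CCAAT boxes.
Cdc25a: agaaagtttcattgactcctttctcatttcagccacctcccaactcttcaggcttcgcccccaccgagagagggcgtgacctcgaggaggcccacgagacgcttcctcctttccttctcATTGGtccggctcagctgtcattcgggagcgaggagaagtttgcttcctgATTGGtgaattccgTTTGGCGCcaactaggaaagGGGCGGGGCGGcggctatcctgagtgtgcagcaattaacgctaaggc
Topbp1: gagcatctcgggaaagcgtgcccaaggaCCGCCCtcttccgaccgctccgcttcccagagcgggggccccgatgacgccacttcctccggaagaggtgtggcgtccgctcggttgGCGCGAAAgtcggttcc
The Cdc25a stretch is chr9:109777833-109778082 and the Topbp1 stretch chr9:103207413-103207544, both on the plus strand of mm9. GC content of the 250 bases was 56.4% in Cdc25a and 73.2% in Topbp1, against the median of 52.4% over all promoters. In Cdc25a the E2F site runs from 67 to 60 bases before the start, between CCAAT boxes and a pair of GC boxes that share a base; in Topbp1 it lies on the minus strand, 129 to 122 bases before the start. The cell cycle homology region TTTGAA, present in 15.99% of promoters, and the CRE TGACGTCA, present in 1.55%, were in 0 of the 9.

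RNAome sequencing called 0 of the 10 members by edgeR and 0 by DESeq2, where edgeR called 2.04% of 9978 genes, 1.07% lower and 0.972% higher. At an unadjusted p under 0.05 there were 2, Atr and Atrip, where 1378 genes, or 13.8% of those tested, were under that level. The median log2 fold change of the members was -0.04, against -0.003 over all genes. Standard errors were 0.15 to 0.34 on the log2 scale in RNAome and 0.05 to 0.08 in mRNA sequencing, and the RNAome intervals of the members reached from 0.591-fold to 2.73-fold. A log2 fold change of -0.34, the value of Atm mRNA with its sign, lay inside the RNAome intervals of Atm, Atr, Chek1, Clspn, Wee1 and Trp53bp1. Of the members whose RNAome levels were not given above, Chek1 had 15.1, 18.0 and 15.4 CPM in cisplatin and 17.2, 17.0 and 16.1 CPM in control libraries. Topbp1 ranged from 30.8 to 34.0 CPM with cisplatin and from 29.1 to 33.0 CPM without, and Clspn from 7.74 to 9.03 and from 7.99 to 9.07 CPM. Chek2 spanned 6.00 to 7.27 CPM in cisplatin and 4.16 to 6.15 CPM in control libraries, Wee1 4.18 to 4.51 and 3.52 to 6.24 CPM, and Cdc25a 3.36 to 5.36 and 3.26 to 4.35 CPM. The cisplatin and control ranges overlapped in all 6 of these genes.

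The difference between the 2 assays was tested itself, as RNAome minus mRNA, in a fit of 12 libraries that did not pair them by RNA sample. It was called in 0 of 13070 genes, that is 0.0%, and in 0 members by edgeR, with 770 genes and 0 members at an unadjusted p under 0.05. With the RNA sample as a block, 13 genes and still 0 members were called, and without control 8.4.16 there were 2 genes higher, 30 lower and 0 members. For Atm the difference was 0.20 ± 0.17, for Atr -0.12 ± 0.15, for Trp53bp1 0.10 ± 0.17 and for Atrip 0.57 ± 0.31 on the log2 scale. These values moved with single libraries: without control 8.4.16 Atrip was at 1.03 ± 0.31 (edgeR adjusted p = 0.633), Atm at 0.27, Atr at -0.02 and Trp53bp1 at 0.00. Atrip was at 0.35 without control 8.6.16 and at 0.36 without control 8.5.16, and Trp53bp1 at 0.34 without control 8.6.16. Without cisplatin 8.4.3 Atm was at 0.05, without cisplatin 8.5.3 at 0.30. With all libraries and the RNA sample as a block, the difference was 0.17 ± 0.18 for Atm and -0.12 ± 0.17 for Atr. For Trp53bp1 it was 0.115 ± 0.196 and for Atrip 0.58 ± 0.33.

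Counts on intronic regions of the same genes are a readout that did not enter the choice of transcripts. In RNAome sequencing 0 of 10 members were called by edgeR on introns, where 1.03% of 6132 genes were called, 0.359% lower and 0.669% higher. At an unadjusted p under 0.05 there were again 0 members, against 12.1% of the genes tested. Atm introns held 1.91, 1.75 and 2.08 CPM in cisplatin and 1.65, 1.76 and 1.25 CPM in control libraries, relative to all intronic counts. These groups overlapped, with 1.752 CPM in cisplatin 8.4.3 and 1.755 CPM in control 8.5.16, on 19 to 72 counts per library. The log2 difference of 0.29 ± 0.22 did not pass and was on the other side of 0 from the Atm transcript (edgeR adjusted p = 0.655). With 1 library left out it ran from 0.13 (control 8.6.16 left out) to 0.41 (control 8.5.16 left out), and none of these values was called. Topbp1 was the 1 member of 10 whose intron groups did not overlap, where 17.3% of genes did not, 8.38% lower and 8.94% higher. It stood at 2.77, 2.92 and 2.33 CPM with cisplatin and 3.12, 3.28 and 3.40 CPM without, a log2 difference of -0.28 ± 0.18 (edgeR adjusted p = 0.580). Cdc25a introns had 1.69, 1.58 and 2.80 CPM in cisplatin and 0.953, 1.29 and 1.76 CPM in control libraries, a log2 difference of 0.52 ± 0.26 that did not pass (edgeR adjusted p = 0.435). Without cisplatin 8.5.3, the highest library, it was 0.23 ± 0.25 (adjusted p = 0.802). Without control 8.4.16, the lowest library, it was 0.37 ± 0.28 (edgeR adjusted p = 0.683).

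The intronic counts of mRNA sequencing called 0 members by edgeR and 13.7% of 8729 genes, 6.23% lower and 7.43% higher. At an unadjusted p under 0.05 were 2 members, Atm and Atrip, as were 25.7% of the genes tested. The intron regions listed in mRNA sequencing differ in part from those in RNAome sequencing. For Atm they were 5, all among its 19 RNAome regions, and for Atrip the same 2 in both assays. Atm introns had 15.9, 15.1 and 17.0 CPM in cisplatin and 22.3, 21.8 and 21.4 CPM in control libraries, without overlap, but on 32 to 58 counts per library (log2 fold change -0.45 ± 0.18, edgeR adjusted p = 0.105). The Atm intron values thus had opposite signs in the 2 assays, neither passed, and their difference was not tested. Atrip introns had 47.8, 45.4 and 37.8 CPM with cisplatin and 36.3, 30.8 and 33.9 CPM without, also apart (log2 fold change 0.40 ± 0.14, edgeR adjusted p = 0.0573). These were the 2 members of 10 whose mRNA intron groups did not overlap, where 28.9% of genes did not, 13.5% lower and 15.4% higher.

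Some of these intronic counts came from 1 region. In Clspn the intron at chr4:126258774-126263081 held 2982 of 3157 intronic counts (94.5%) in mRNA and 314 of 370 (84.9%) in RNAome sequencing. The annotation places a transcribed processed pseudogene, Gm12936, at chr4:126261753-126262053 on the opposite strand inside it, so these counts cannot be assigned to Clspn. In Trp53bp1 an intron of 10635 bases near the start, chr2:121085005-121095639, held 389 of 488 intronic counts (79.7%) in RNAome sequencing. Its counts, not scaled for depth, were 80, 120 and 60 in cisplatin and 32, 42 and 55 in control libraries there, and 7, 10 and 11 against 8, 13 and 9 in mRNA sequencing, where the Trp53bp1 transcript itself had 1251 to 2160 counts per library, against 35 to 187 in RNAome sequencing. Scaled to all intronic counts, the Trp53bp1 introns together had 3.01, 3.72 and 3.31 CPM in cisplatin and 3.64, 2.26 and 3.86 CPM in control libraries in RNAome sequencing, overlapping groups with a log2 difference of 0.08 ± 0.20 (edgeR adjusted p = 0.936). The annotation holds retained-intron transcripts of Trp53bp1 that reach into this region. In Atrip the intron at chr9:108964183-108967641, where a retained-intron transcript is also annotated, held 436 of 522 intronic counts (83.5%) of mRNA sequencing.

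**Figure D2:**
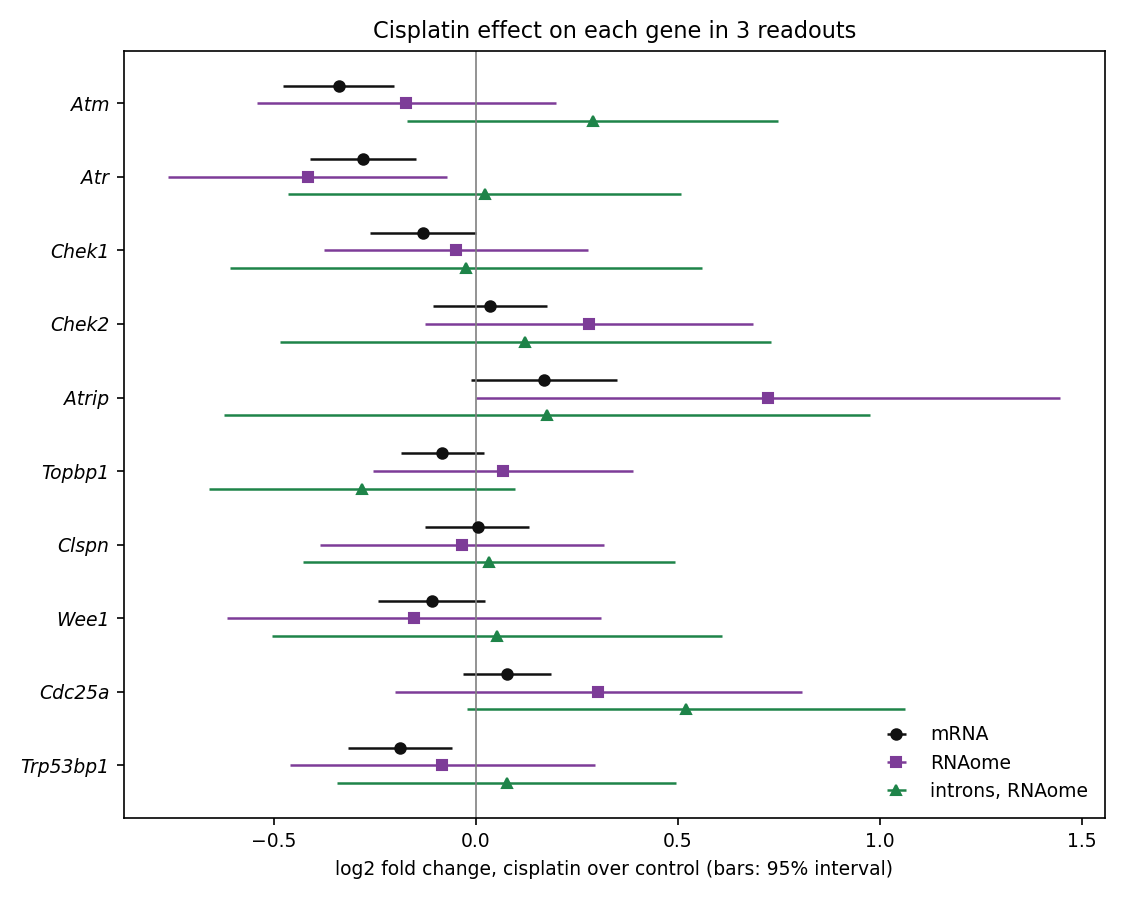
Log2 fold change of cisplatin over control for each gene in mRNA sequencing (black), RNAome sequencing (purple) and RNAome introns (green), with 95% intervals. The mRNA intervals of Atm, Atr and Trp53bp1 lie below 0, as do, without a call after adjustment, those of Chek1 in mRNA (just under 0) and Atr in RNAome sequencing, while that of Atrip in RNAome sequencing starts just above 0, also without a call; the RNAome and intron intervals are wider than the mRNA intervals of the same genes.

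The 3 lowered genes were the 3 longest members, with spans of 97.6 kb (Atm), 94.0 kb (Atr) and 78.1 kb (Trp53bp1), and the next was Topbp1 at 45.2 kb. Across the 10 members the rank correlation of span with mRNA log2 fold change was -0.81, and -0.75 in RNAome sequencing, given as a description since the points share the libraries. Across 13213 genes of the mRNA assay it was -0.33, and across 9371 genes of the RNAome assay -0.22. Of 834 genes spanning 70 to 100 kb, 37.6% were called lower in mRNA sequencing and their median log2 fold change was -0.14, with quartiles at -0.30 and 0.08. Atr at -0.28 and Trp53bp1 at -0.19 lay between that median and the lower quartile, and Atm at -0.34 lay just below the quartile. Of the 2633 genes spanning 10 to 20 kb, which include Chek1, Atrip, Wee1 and Cdc25a, 9.95% were called lower and the median was 0.08. Chek1 at -0.13 and Wee1 at -0.11 were below the lower quartile of that class, -0.07.

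**Figure D3:**
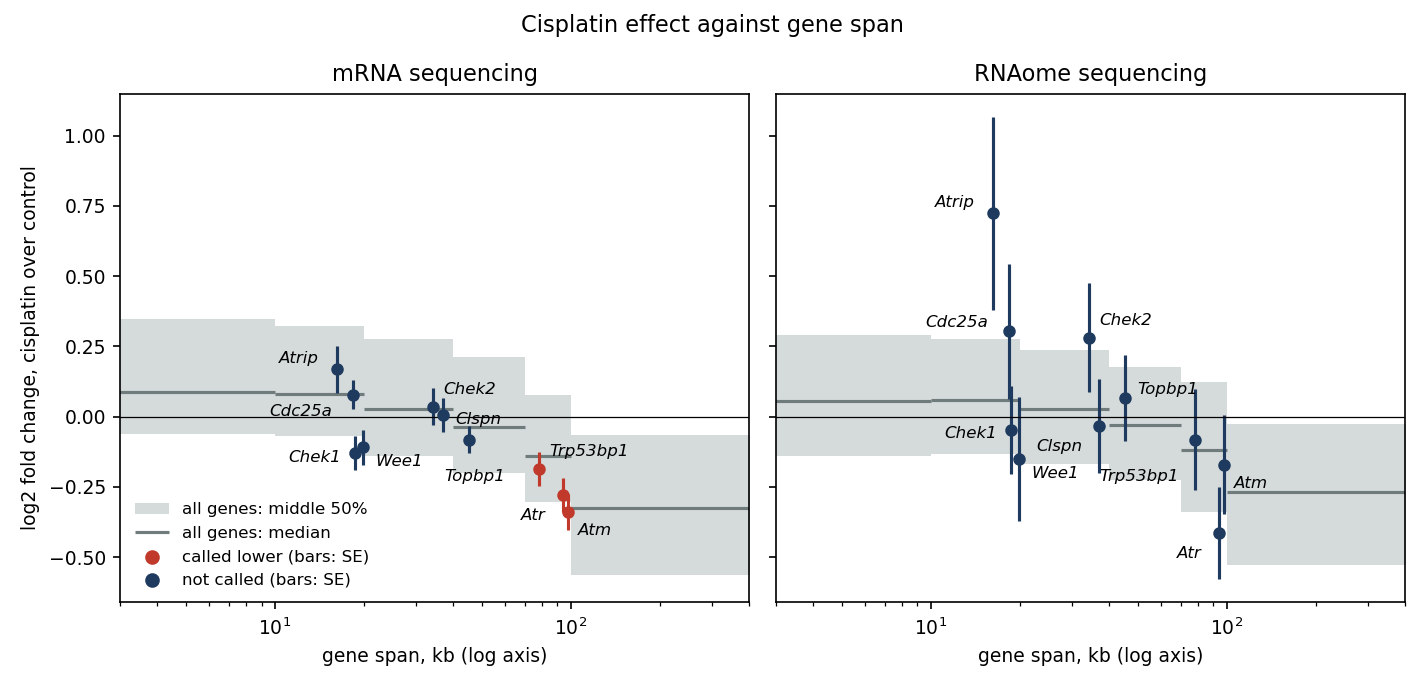
Log2 fold change of cisplatin over control against gene span in kb (log axis), in mRNA (left) and RNAome sequencing (right); points are the 10 genes with SE, red where called lower, and grey steps are the median and the middle 50% of all genes in 6 span classes. Atm, Atr and Trp53bp1 sit at 78.1 to 97.6 kb, where the median of all genes is -0.14 in mRNA sequencing.

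Levels were compared between genes per kb of the longest annotated transcript. In mRNA sequencing of cisplatin cells the order was Topbp1 at 46.5, Wee1 at 39.9, Cdc25a at 38.8, Chek2 at 23.8, Chek1 at 23.6, Clspn at 14.7, Trp53bp1 at 13.0, Atr at 11.5, Atm at 9.91 and Atrip at 6.87 CPM per kb. In control cells Topbp1 stood at 49.2, Wee1 at 43.0, Cdc25a at 36.8, Chek1 at 25.8 and Chek2 at 23.2 CPM per kb, each apart from the next over the 3 libraries. Below them Trp53bp1 at 14.8, Clspn at 14.7, Atr at 13.9 and Atm at 12.5 CPM per kb overlapped with their neighbours, and Atrip was lowest at 6.09. In cisplatin cells only 2 neighbouring pairs overlapped, Wee1 with Cdc25a and Chek2 with Chek1, so that Clspn, Trp53bp1, Atr and Atm were apart from each other. The Wee1 value is overstated against the others, since its annotated model holds coding length and only 3 further bases. Topbp1 over Atrip, the highest over the lowest, was 6.77-fold with cisplatin and 8.09-fold without.

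In RNAome sequencing the order was another one. Topbp1 at 6.18 in cisplatin and 5.90 CPM per kb in control cells again led, but Chek1 came second at 4.76 and 4.94, apart from its neighbours in both groups. Cdc25a had 1.25 in cisplatin and 1.01 CPM per kb in control cells, where its range overlapped that of Atm in cisplatin and that of Trp53bp1 in control cells. Atrip was again lowest, at 0.598 in cisplatin and 0.394 CPM per kb in control cells.

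Set against the median gene of the same RNA sample, the RNAome to mRNA ratio placed Chek1 highest among the members and Cdc25a lowest. Chek1 was 1.31 ± 0.17 above the median gene on the log2 scale in cisplatin and 1.32 ± 0.07 in control samples (SD, n = 3 each), at the percentile 92.8 of 9442 genes. Atr followed at 0.85 ± 0.04 in cisplatin and 1.08 ± 0.24 in control samples. Cdc25a was at -1.37 ± 0.36 in cisplatin and -1.49 ± 0.25 in control samples, at the percentile 6.7. The lowest of the 6 samples was at 1.16 for Chek1, and the highest was at -1.07 for Cdc25a. The ratio moved with base composition: its rank correlation with the GC content of the longest coding transcript was -0.83 over the 10 members and -0.51 over 8045 genes, with Chek1 at 39.4% GC and Cdc25a at 51.8%. The part of GC content in the ratio was not tested, and the 2 assays also differ in RNA selection and library making.

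**Figure D4:**
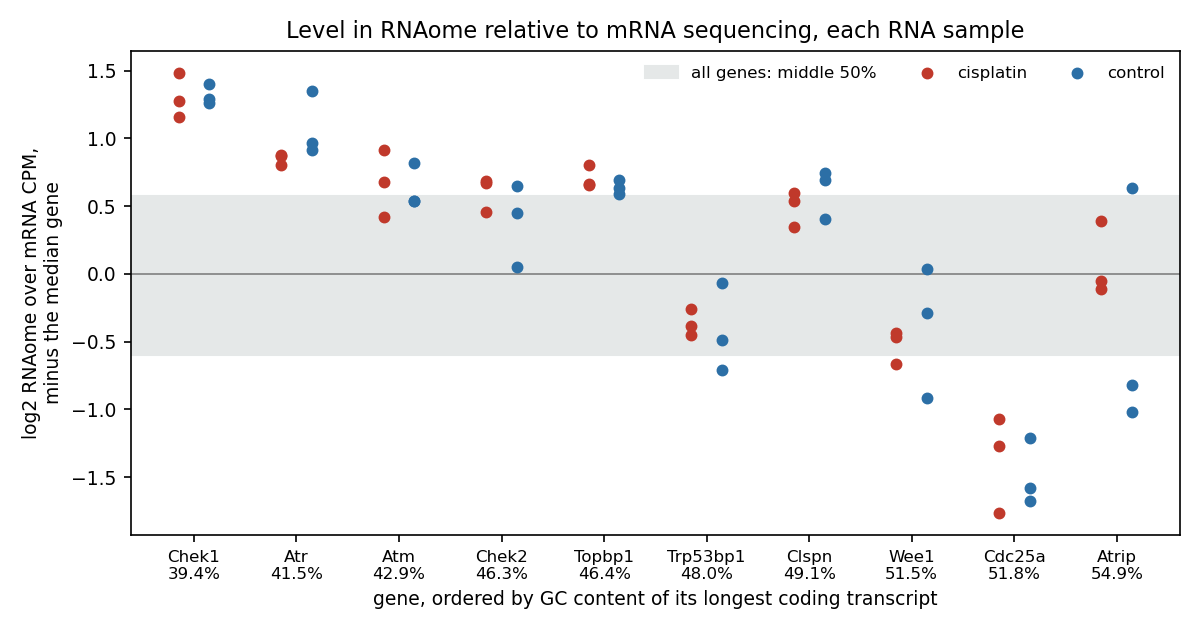
Log2 ratio of RNAome to mRNA CPM in each RNA sample, minus that of the median gene, for the 10 genes ordered by the GC content of their longest coding transcript; cisplatin left in red, control right in blue, grey band the middle 50% of all genes. Chek1 lies above the band and Cdc25a below it in all 6 samples.

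Around these 10 genes, the rest of the pathway was counted in 5 lists, to be read against the 19.2% of all genes called lower and 18.0% called higher in mRNA sequencing. The lists were chosen with earlier results of these data known, so their counts are a description and not a test. Of 9 genes of the checkpoint clamp and its loaders 2 rose and 2 fell in mRNA sequencing, near the share of all genes in each direction, with a median log2 fold change of 0.03. Rad17, which loads the clamp, fell to 41.5 ± 2.4 CPM in cisplatin, against 52.6 ± 0.8 CPM in control libraries (SD, n = 3 each; edgeR adjusted p = 0.00127), and Hus1 of the clamp fell by 0.20 on the log2 scale. Rad9b, a paralogue of the clamp subunit RAD9, and Rad1, another subunit, rose by 0.58 and 0.21 on the log2 scale (edgeR adjusted p = 0.00369 and 0.0436). Of 6 genes of single-stranded DNA sensing and fork protection 2 fell, Rpa1, the large RPA subunit, by 0.17 and Etaa1, the other ATR activator, by 0.37 on the log2 scale (edgeR adjusted p = 0.00436 and 0.00164); in a list of this size that is within 1 gene of the 19.2% lower among all genes. In RNAome sequencing 0 of these 15 genes were called by edgeR, where 2.04% of all genes were.

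Of 16 genes of break signalling, which surround Atm and Trp53bp1, 7 fell and 0 rose in mRNA sequencing, where 19.2% of all genes were lower and 18.0% higher, with a median of -0.12 against 0.01 over all genes. Rif1, the effector that binds phosphorylated 53BP1, fell to 466.1 ± 17.2 CPM in cisplatin, against 706.5 ± 40.1 CPM in control libraries (log2 fold change -0.60 ± 0.05, edgeR adjusted p = 7.92e-07). Prkdc, the third kinase of the Atm and Atr family, fell to 68.3 ± 4.6 CPM in cisplatin, against 100.5 ± 4.6 CPM in control libraries (edgeR adjusted p = 1.78e-05). Bard1, the partner of BRCA1, fell by 0.29 on the log2 scale, and H2ax, the histone that ATM and ATR phosphorylate, by 0.34. H2ax was also the 1 gene of these 16 called in RNAome sequencing, at -0.76 ± 0.18 (edgeR adjusted p = 0.0269). There 2.04% of all genes were called, 1.07% lower.

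Of 13 cyclin-dependent kinases and genes of their control, the list around Wee1 and Cdc25a, 8 fell and 2 rose in mRNA sequencing. Of all genes the same 19.2% were lower and 18.0% higher, and the median of the list was -0.31. Plk1, the mitotic kinase that marks WEE1 and Claspin for degradation, fell to 112.1 ± 2.8 CPM in cisplatin, against 201.8 ± 8.1 CPM in control libraries (edgeR adjusted p = 1.25e-07). It was also the 1 gene of these 13 called in RNAome sequencing, lower (log2 fold change -0.95 ± 0.22, edgeR adjusted p = 0.0265), where 1.07% of all genes were called lower. Ccnb1 and Cdk1, the mitotic cyclin and its kinase, fell by 0.38 each on the log2 scale, and Fbxw11, a ubiquitin ligase subunit, by 0.42. Mitosis markers moved with these genes in mRNA sequencing: 11 of 12 were lower and 1, Aurkb, was higher. Their sum there spanned 3228 to 3244 CPM in cisplatin and 4133 to 4344 CPM in control libraries. In RNAome sequencing 0 of the 12 mitosis markers were called, where 2.04% of all genes were. The part of cell cycle stage in the changes was not tested. Of 15 S phase markers 4 were lower and 1 was higher in mRNA sequencing. Of all genes 19.2% were lower and 18.0% higher, so the S phase count of lower genes is near the background.

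Of 6 brakes and outputs of the damage response 5 rose in mRNA sequencing and 0 fell, where 18.0% of all genes rose, with a median of 0.96. Mdm2, the ligase that holds p53 down, rose to 260.6 ± 37.8 CPM in cisplatin, against 106.7 ± 16.2 CPM in control libraries (edgeR adjusted p = 7.37e-07). Cdkn1a, which encodes the kinase inhibitor p21, rose to 75.9 ± 8.4 CPM in cisplatin, against 33.6 ± 3.0 CPM in control libraries (edgeR adjusted p = 5.44e-07). Ppm1d, the phosphatase that reverses ATM and CHK phosphorylation, rose by 0.78 on the log2 scale, and Ccng1, a p53 target, by 1.15. In RNAome sequencing 3 of the 6 were called higher, where 0.972% of all genes were, with a median of 1.03.

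The genes whose pattern over the 12 long RNA libraries was most like that of Atm, by Pearson's r of log2 CPM with each assay centred on its own mean, were Slc20a2 at 0.95, Urb2 at 0.94 and Slc29a1 at 0.94, out of 6699 genes. Their mRNA log2 fold changes were -0.39, -0.42 and -0.32. The points share their RNA samples and the treatment difference.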

How the data were processed

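Whole-number read counts per RefSeq transcript and per genomic region, not normalized, were deposited by the authors for 12 long RNA libraries, 6 of mRNA and 6 of RNAome sequencing. Bowtie, TopHat, edgeR and genome build mm9 stand in the submitters' processing notes, with no role or version; counting rule, use of strand and annotation were not given in the sources used here. Small RNA libraries, 6 in number, were not used.

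RefSeq entries were matched to symbols, 18274 of 18943 in the mRNA and 17133 of 17787 in the RNAome table, and 1 transcript per gene was kept (present in both tables preferred, then highest mean CPM). The counts of the expression tables went into edgeR 4.0.16 under R 4.3.3 (TMM scaling, filterByExpr by group, quasi-likelihood test, two-sided, Benjamini-Hochberg adjustment over all genes tested), within each assay, as an interaction over both, and on counts of regions equal to GENCODE vM1 introns summed per gene. The SE is the fold change divided by the root of F. Library totals of the tested genes ran from 9502794 to 14821682 counts in mRNA and from 4990985 to 19331955 in RNAome sequencing. The TMM scaling factors were 0.964 to 1.035 in mRNA and 0.628 to 1.396 in RNAome sequencing. DESeq2 1.42.0, RLE scaling, no filter, the deposited abundance tables, region rows, left-out libraries and replicate blocks were alternatives. Deviations of the same RNA sample in both assays from their group means correlated at 0.11 to 0.39 in all 6 samples. Unmatched samples were not set beside these, so the pairing of the assays rests on the code that the labels share. The fits were tested on simulated counts.

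Promoters came from RefSeq (build GRCm38.p6; 250 bases before the start) and were placed on mm9 by exact match to NCBIM37, the same assembly. Beside all 10 members, the text names up to 4 called genes per pathway list by smallest mRNA adjusted p and the 3 genes most like Atm; further genes were named after their values were seen. The members and the lists were chosen with earlier results of these data known.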

Additional observations from a re-analysis of the deposited data

How the results depend on the processing

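Atm and Atr were called lower in mRNA sequencing under every alternative run, with log2 fold changes of -0.38 to -0.28 and -0.33 to -0.23. The alternatives that gave a member another sign all concern values that were not called. Clspn mRNA, 0.01 above, was -0.002 with DESeq2 and with RLE scaling, -0.006 without a filter, and -0.023 to 0.032 with 1 library left out (-0.021 and -0.023 without cisplatin 8.3.3 and without control 8.5.16). Its RNAome value was -0.099 to 0.036 with 1 library left out, that of Chek1 -0.137 to 0.004 and that of Trp53bp1 -0.186 to 0.077. The difference between assays for Trp53bp1 was -0.00 to 0.34 with 1 RNA sample left out. Intronic log2 differences in mRNA in place of RNAome sequencing were -0.45 for Atm, -0.11 for Atr, -0.047 for Trp53bp1 and 0.037 for Topbp1. For Atr introns the value was -0.01 with regions wholly inside an intron and -0.23 to 0.32 with 1 library left out, and for Trp53bp1 introns -0.18 to 0.24, with -0.02 without cisplatin 8.4.3. The cause of these moves was not tested.

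Counts over all genes moved more. RNAome sequencing called 97 genes higher and 107 lower; DESeq2 called 57 higher, and with 1 library left out edgeR called 40 to 92 higher and 38 to 124 lower, with 40 and 38 without cisplatin 8.4.3, 58 lower without cisplatin 8.3.3 and 46 higher without control 8.6.16. Introns gave 41 higher and 22 lower in RNAome, 649 higher and 544 lower in mRNA sequencing, and fewer with 1 library left out: 21 higher and 3 lower without cisplatin 8.3.3, 23 and 4 without cisplatin 8.4.3, 11 lower without control 8.4.16, and 10 higher and 9 lower without control 8.6.16. The difference between assays had 0 calls, 13 lower with the RNA sample as a replicate block, and 0 to 2 higher and 0 to 30 lower with 1 sample left out, the 2 and 30 being without control 8.4.16.

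The middle number of the sample codes is shared by 2 samples of each treatment, and the labels do not say what it marks. As a replicate block, leaving 1 residual degree of freedom, it added Chek1 to the mRNA calls (-0.18, edgeR adjusted p = 0.00844), gave 3095 higher and 3310 lower mRNA calls, 12 higher and 9 lower intron calls, 0.10 for Trp53bp1 in RNAome sequencing, -0.21 for Atr introns, 0.97 for Cdc25a introns and 0.17 for Atm introns. Deviations of samples sharing the number correlated at 0.12 and 0.16 in mRNA and at -0.09 and 0.08 in RNAome sequencing. In RNAome sequencing Atrip rested on 10 to 49 counts per library.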
